A study of Homo sapiens with 21 samples.

Results

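The early response of OCI-AML3 cells to tunicamycin was taken as the difference between cells exposed to the drug for 4 h and cells exposed to its solvent DMSO for the same time. OCI-AML3 is an established human acute myeloid leukaemia line with a mutant NPM1 gene. The comparison used 6 of the 21 RNA libraries of the study, 3 from cells given tunicamycin at 1 μg/mL for 4 h and 3 from cells given DMSO for 4 h. Its members were the genes with a level of 1 CPM (counts scaled to a common library total) or more in 3 or more of these libraries, 13655 of the 60671 genes in the table. Another 3 libraries of untreated OCI-AML3 cells at 0 h served as a check on the solvent and 4 h of culture together. For a comparison of times, 6 libraries of the line after 24 h of DMSO or tunicamycin were used. All groups were cells of 1 line in suspension culture, so they share its mutations, and nothing in the labels says whether the 3 replicates of a group were separate cultures. The p-values therefore measure the spread between these libraries, which may be technical. HEK293T cells, the other line of the study, were not used for levels or counts here, although their 6 libraries entered the models fitted on all 21 libraries.

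Tunicamycin inhibits DPAGT1, the enzyme that starts the dolichol-linked sugar from which N-glycans are made, and proteins that enter the endoplasmic reticulum (ER) without their glycans fold poorly. The unfolded protein response (UPR) is read from 3 sensors in the ER membrane. IRE1 (gene ERN1) splices the messenger RNA of XBP1, ATF6 is cut to free a transcription factor, and PERK (EIF2AK3) phosphorylates eIF2α, which lowers general translation and favours that of ATF4. XBP1 and ATF6 are known to drive genes for ER chaperones and for ER-associated degradation (ERAD), and ATF4 and its partner CHOP (DDIT3) to drive genes for amino acid supply, redox balance and cell death.

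The 6 libraries held 14108151 to 17701152 counts, and 3 counts, the limit that a count of 0 allows, corresponded to 0.166 to 0.213 CPM. DMSO replicate 1 stood apart from the other libraries of its group. Its counts differed from theirs by a chi-square of 20.4 and 19.8 per degree of freedom, against 3.65 to 4.01 for the other pairs within a group, and mitochondrially encoded genes took 1.87% of its counts against 2.41 and 2.45% in DMSO replicates 2 and 3 and 1.74 to 2.0% in the tunicamycin libraries. The counts over all genes are therefore given with and without it, and the counts of a list where they change. Of 25 myeloid markers 23 passed the filter, led by CTSG, the granule protease cathepsin G, at 1974 to 2623 CPM in DMSO, whereas MPO, myeloperoxidase, lay between 1.07 and 1.61 CPM over all 6 libraries and the progenitor receptor KIT had no counts. Of 16 lymphoid, erythroid and epithelial markers only PAX8 passed the filter and 9 had no counts in any of the 6 libraries.

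Upon 4 h of tunicamycin, 504 genes rose and 173 fell. A gene was called where its log2 fold change lay above 1 or below -1 and its p in edgeR's quasi-likelihood test, adjusted by Benjamini-Hochberg, did not exceed 0.05. The 677 called genes were 4.96% of the genes tested, 3.69% higher and 1.27% lower. With the adjusted p alone 4641 genes passed, 34.0% of those tested, of which 2442 (17.9%) were higher and 2199 (16.1%) lower. The counts of each gene list below stand against these shares. The median log2 fold change of all genes tested was 0.00. Without DMSO replicate 1 the counts were 517 higher and 204 lower, and 613 of the 677 genes were called again, each in the same direction. The rises were larger than the falls, with a median of 1.48 on the log2 scale against -1.25, and 147 genes rose by more than 2 on that scale while 15 fell by more than 2. The 3 libraries of one group lay wholly above or below the 3 of the other for 675 of the called genes. Across all genes tested that held for 24.3% with tunicamycin above and 22.8% with tunicamycin below. The filter itself let in 107 genes that reached 1 CPM in the tunicamycin libraries alone, 94 of them called higher, and 60 that reached it in the DMSO libraries alone, 36 of them called lower, so these had to differ.

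**Figure D1:**
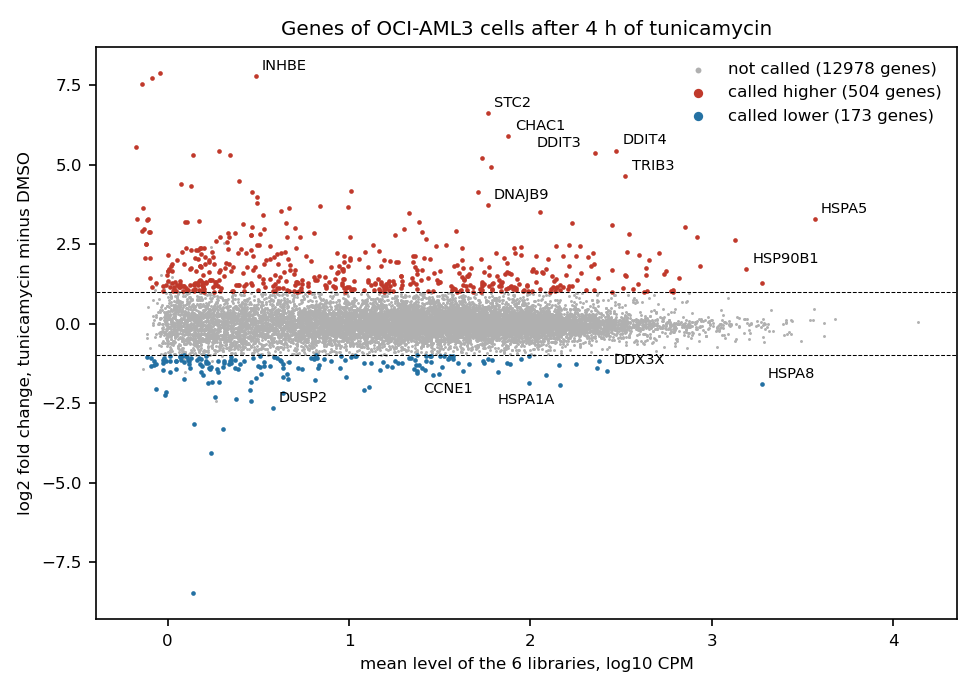
Each point is a gene, with its mean level in the 6 libraries (log10 CPM) on the horizontal axis and its log2 fold change after 4 h of tunicamycin on the vertical axis. Red marks the 504 genes called higher and blue the 173 called lower, and dashed lines stand at 1 and -1. HSPA5 is the most abundant gene among those that rose and HSPA8 among those that fell. Genes at 3 counts or fewer in every library of one group, such as INHBE, have a fitted value that is no bound.

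The genes called higher took 1.58 to 1.63% of all counts in the DMSO libraries and 5.45 to 5.54% after tunicamycin. HSPA5 alone went from 0.0682 to 0.0693% to 0.655 to 0.676% of all counts. The genes called lower took 0.779 to 0.805% of the counts in DMSO and 0.271 to 0.274% after tunicamycin. Levels are relative to the total, so more RNA of a gene per cell and more cells with that RNA cannot be told apart in these bulk libraries.

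Among the sensors and their processing enzymes, 3 of 10 tested genes rose and 0 fell, with a list median of 0.48 on the log2 scale. XBP1, the transcription factor made from the spliced messenger, was at 212, 170 and 166 CPM in the DMSO libraries and at 750, 705 and 715 CPM after tunicamycin, a log2 fold change of 1.99 ± 0.10 (SE, adjusted p = 5.9e-08). ERN1 rose from 17.3 to 62.0 CPM (1.85 ± 0.11, adjusted p = 2.9e-07) and EIF2AK3 from 15.4 to 48.3 CPM (1.65 ± 0.09, adjusted p = 1.9e-07). Genes for 2 of the 3 sensors therefore rose, and neither overlapped between the groups. ATF6, the third sensor, lay below the fold threshold at 0.22 on the log2 scale (adjusted p = 0.037), with means of 82.8 CPM in DMSO and 96.3 CPM after tunicamycin. DPAGT1 itself, the target of the drug, was at 37.9 to 39.5 CPM in DMSO and 46.0 to 46.9 CPM after tunicamycin, a log2 fold change of 0.27 (adjusted p = 0.015).

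ER chaperones made up the most abundant part of the response. Of 29 tested chaperones and co-chaperones of a list of 30, 11 rose and 0 fell, 18 passed the adjusted p alone upward and 2 downward, and the median was 0.67. HSPA5, the ER chaperone BiP that binds unfolded chains, gave 713, 664 and 670 CPM in the DMSO libraries and 6855, 6649 and 6609 CPM after tunicamycin. The groups were far apart against a narrow spread within each (log2 fold change 3.30 ± 0.09, adjusted p = 9.8e-10). Untreated cells had a mean of 637 CPM on the scale of the 21-library model, with DMSO minus untreated at 0.12 on the log2 scale (adjusted p = 0.59). HSPA5 was the highest called gene after tunicamycin, followed by CALR, HSP90B1, PDIA4 and HYOU1. HSP90B1, the ER member of the HSP90 family, rose from 690, 711 and 766 CPM to 2307, 2332 and 2460 CPM. CALR, the lectin chaperone calreticulin, rose from a mean of 1104 to 2672 CPM (1.28 ± 0.08).

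The largest rise in the list, ahead of that of HSPA5, was that of a co-chaperone. DNAJB9, which delivers substrates to BiP and ERAD, was at 7.55, 9.11 and 7.76 CPM in DMSO and at a mean of 108 CPM with an SD of 8.24 after tunicamycin (3.74 ± 0.10, adjusted p = 9.8e-10). SDF2L1 (3.12), MANF (2.82), HYOU1 (2.73) and DNAJC3 (2.48) came after HSPA5 on the log2 scale, and each is a partner or regulator of BiP. CRELD2 (2.12), CRELD1 (1.81) and DNAJB11 (1.81) completed the 11 genes. The members farthest below 0, CNPY4 at -0.78 and SERPINH1 at -0.30, did not pass both thresholds. FICD, the enzyme that adds and removes AMP on BiP and is on none of the lists, rose from 3.22 to 4.03 CPM in DMSO to 37.8 to 41.6 CPM (3.48 ± 0.12).

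The start of HSPA5 carries letters that are known as the ER stress response element (ERSE), and its promoter window is shown because the members with this element moved together. The windows run from 250 bases before to 50 bases after a RefSeq start (GRCh38.p14), read 5′ to 3′ on the strand of the gene, and were found for 10096 of the 13655 tested genes. The letters searched on both strands were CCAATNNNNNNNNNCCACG, where N is any base, and capitals below mark each match. HSPA5 (chr9:125241294-125241593, minus strand) has 1 match, from 66 to 48 bases before the start. HSP90B1 (chr12:103930160-103930459, plus strand) has 2, from 194 to 176 on its own strand and from 89 to 71 on the other. CRELD2 (chr22:49918384-49918683, plus strand) has 1 from 80 to 62 on the other strand, and the same 19 bases, chr22:49918554-49918572, fall in the window of ALG12, a mannosyltransferase of N-glycan assembly that is read in the opposite direction.
HSPA5: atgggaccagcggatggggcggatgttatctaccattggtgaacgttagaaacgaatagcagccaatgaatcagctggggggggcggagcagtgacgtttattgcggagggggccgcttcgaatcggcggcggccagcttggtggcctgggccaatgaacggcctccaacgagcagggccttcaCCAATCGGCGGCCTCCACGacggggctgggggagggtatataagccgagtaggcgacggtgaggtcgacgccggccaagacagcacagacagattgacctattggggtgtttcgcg
HSP90B1: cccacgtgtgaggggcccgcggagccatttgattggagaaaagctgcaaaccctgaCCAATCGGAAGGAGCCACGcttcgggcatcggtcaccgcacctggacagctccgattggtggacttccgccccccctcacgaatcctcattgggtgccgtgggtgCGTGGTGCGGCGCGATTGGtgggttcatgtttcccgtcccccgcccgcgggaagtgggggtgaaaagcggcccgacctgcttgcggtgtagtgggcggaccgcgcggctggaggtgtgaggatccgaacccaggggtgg
CRELD2: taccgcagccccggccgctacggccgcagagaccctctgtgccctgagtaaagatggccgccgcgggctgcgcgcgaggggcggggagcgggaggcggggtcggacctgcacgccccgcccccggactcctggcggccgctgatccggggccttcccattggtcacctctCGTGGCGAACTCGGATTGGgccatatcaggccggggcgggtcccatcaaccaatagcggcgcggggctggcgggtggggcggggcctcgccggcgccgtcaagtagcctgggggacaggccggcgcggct

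In all, 16 tested genes had an ERSE match in at least 1 window, 0.158% of the tested genes with a window, against 25 of all 27326 genes of the table (0.0915%). Counted by window, 27 of 35116 (0.0769%) held one. Of these 16 genes 11 rose, 0 fell and the median log2 fold change was 1.34. All 16 lay above 0 and passed the adjusted p alone, from 0.51 to 3.48. Among genes called higher 11 of 353 with a window (3.12%) held the letters, and among those called lower 0 of 116. The 11 genes were HSPA5, HSP90B1, CALR, CRELD2, PDIA6, ERO1B, XBP1, ALG12 and FICD, with SYNPO (1.45) and TRIM5 (1.40), which were named after their values were seen. The 5 genes with a match that did not pass the fold threshold were CANX (0.81), SERP1 (0.59), EIF2A (0.56), ZNF17 (0.56) and TMEM120A (0.51). The 16 are not independent, since CRELD2 and ALG12 share their match and EIF2A and SERP1 overlap on opposite strands over 39339 bases. A match describes the letters, and binding was not measured.

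Of the disulfide isomerases and ER oxidases, 4 of 23 tested genes rose and 0 fell, with a median of 0.25. PDIA4, an isomerase that forms and reshuffles disulfides, went from 390, 356 and 372 CPM to 2291, 2363 and 2250 CPM (2.63 ± 0.08, adjusted p = 1.8e-09). ERO1B, which oxidises the isomerases, rose from 9.23 to 51.0 CPM (2.46 ± 0.12), TXNDC11 by 1.19 and PDIA6 by 1.07 on the log2 scale. PDIA3, the isomerase that works with calreticulin, stood at 0.96 and did not pass the fold threshold, and the other 18 tested members ranged from -0.39 for PRDX4 to 0.65 for ERP44.

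In ERAD, the pathway that returns misfolded proteins to the cytosol for breakdown, 8 of 36 tested genes rose and 0 fell, and the median was 0.20. HERPUD1, a scaffold of the retrotranslocation complex, was at 171, 145 and 147 CPM in DMSO and at 1295, 1273 and 1271 CPM after tunicamycin (3.05 ± 0.09, adjusted p = 1.1e-09). DERL3 (2.92), the ubiquitin ligase SYVN1 (2.38), its partner SEL1L (1.89), DERL2 (1.57) and SELENOS (1.18) came next on the log2 scale. EDEM1 and SELENOK also rose, by 1.12 and 1.11. The lowest members were UBE2G2, a conjugating enzyme, at -0.46 and NPLOC4, a cofactor of the extracting ATPase, at -0.25. A second element, ERSE-II (ATTGG and CCACG with 1 base of any kind between them, on either strand), was found in windows of 12 tested genes (0.119%), of which 3 rose, HERPUD1, HYOU1 and SDF2L1. The other 9 ranged from -0.31 to 0.96 and with the adjusted p alone 4 of them passed upward and 1 downward. The window of HERPUD1 (chr16:56931892-56932191, plus strand) has the match from 117 to 107 bases before the start, in capitals below.
HERPUD1: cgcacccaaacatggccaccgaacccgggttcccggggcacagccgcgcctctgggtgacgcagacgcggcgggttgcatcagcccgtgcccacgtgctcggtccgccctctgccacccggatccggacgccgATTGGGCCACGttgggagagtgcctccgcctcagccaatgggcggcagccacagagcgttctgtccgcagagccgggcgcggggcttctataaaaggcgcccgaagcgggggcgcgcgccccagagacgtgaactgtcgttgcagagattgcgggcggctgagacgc

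Counts for the machinery that moves proteins through the secretory pathway stand against 3.69% of all genes tested called higher and 1.27% lower. With the adjusted p alone 17.9% of all genes tested passed upward and 16.1% downward. In translocation and signal peptide processing 0 of 24 tested genes were called in either direction, 12 passed the adjusted p alone upward, and the highest were SEC11C (0.90) and TRAM1 (0.86). Without DMSO replicate 1, SEC11C was called higher (1.04). In ER to Golgi transport 3 of 40 rose, STX5 (1.29), TMED7 (1.23) and the COPII coat gene SEC24D (1.19), and 27 passed the adjusted p alone upward and 0 downward, with 37 above 0 and a median of 0.40. In N-glycan assembly and transfer, the pathway that the drug blocks, 4 of 44 rose and 0 fell. The 4 were GMPPB (1.36) and GFPT1 (1.3), which make sugar donors, MAGT1 (1.02), an oligosaccharyltransferase subunit, and ALG12 (1.01). The calls of MAGT1 and ALG12 lay at the threshold. Both were lost without TMM scaling (1.00 when rounded, and 0.99), which left 2 of the 44 called higher and 1 lower, that of MAGT1 also without DMSO replicate 2 and that of ALG12 without DMSO replicate 3 or tunicamycin replicate 2. DOLK, dolichol kinase, went from 18.3, 21.3 and 20.3 CPM to 9.44, 10.1 and 10.8 CPM, a log2 fold change of -0.98 that missed the fold threshold, and it was called without DMSO replicate 1 (-1.05), without tunicamycin replicate 3 (-1.03) and without TMM scaling (-1.01).

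**Figure D2:**
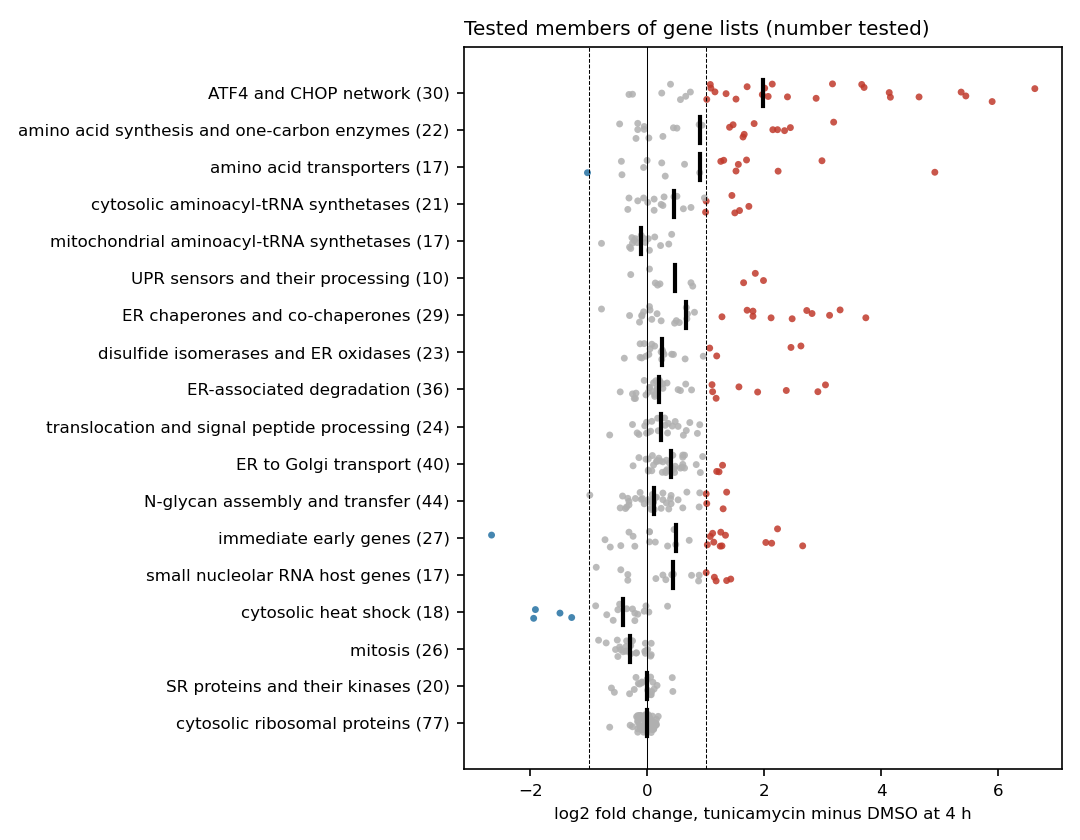
Each point is a tested member of one of 18 of the 38 gene lists, with its log2 fold change after 4 h of tunicamycin on the horizontal axis, red for members called higher, blue for members called lower and grey for the rest. Black bars are list medians and dashed lines stand at 1 and -1. The ATF4 and CHOP network has a median of 1.99, and among the lists drawn the members called lower are in cytosolic heat shock, immediate early genes and amino acid transporters.

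The ATF4 and CHOP network was the list with the highest share of members called, 23 of 30 higher and 0 lower, with a median log2 fold change of 1.99. Without DMSO replicate 1, 22 were called higher and the median was 1.95. The lists were chosen with earlier results of these data known, so their ranking may describe that choice. DDIT3, the transcription factor CHOP, was at 10.1, 10.7 and 11.3 CPM in DMSO and at 423, 467 and 439 CPM after tunicamycin (5.37 ± 0.09, adjusted p = 2.0e-11). All 3 tunicamycin libraries lay far above all DMSO libraries, with little spread in either group. DDIT3 overlaps MARS1 on the opposite strand by 982 bases, and use of the strand in counting was not stated in the sources used here. ATF4, whose control is chiefly translational, went from 454, 381 and 353 CPM to 804, 813 and 791 CPM, a log2 fold change of 1.02 ± 0.09 (adjusted p = 9.6e-06). The call of ATF4 was lost without DMSO replicate 2 (0.99), without DMSO replicate 3 (0.94) and without TMM scaling (1.00 when rounded).

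The members with the largest rises were STC2, CHAC1 and DDIT4. STC2, a secreted glycoprotein hormone, was at 0.452, 1.74 and 1.22 CPM in DMSO and at 119, 109 and 115 CPM after tunicamycin (6.63 ± 0.20, adjusted p = 1.4e-09). CHAC1, an enzyme that degrades glutathione, went from 3.16, 2.60 and 1.77 CPM to 145, 156 and 147 CPM (5.90 ± 0.14, adjusted p = 3.8e-10). DDIT4, an inhibitor of mTORC1 signalling, went from 18.5, 10.4 and 11 CPM to 598, 591 and 553 CPM (5.45 ± 0.18). In all 3 genes the groups were widely apart, and the DMSO libraries were near the counting limit for STC2. TRIB3, a pseudokinase induced by CHOP, rose by 4.65 on the log2 scale, ADM2 by 4.14, GDF15 by 3.71, ATF3 by 3.67 and SESN2 by 3.17. NUPR1 rose by 4.16 from a level of 0.304 CPM, near the counting limit. Outside the lists DLX2 (3.99), ZBED3 (3.81), SLC12A8 (3.64), ULBP1 (3.54) and TSC22D3 (3.50) were among the 20 largest rises. INHBE, an inhibin subunit outside the lists, had 0, 0.0620 and 0 CPM in DMSO and 6.40, 5.39 and 6.54 CPM after tunicamycin, at least 33.6-fold higher against a floor of 3 counts per library.

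PPP1R15A, the phosphatase subunit that reverses eIF2α phosphorylation, went from 28.5 to 150 CPM (2.40 ± 0.10), whereas PPP1R15B, its constitutive counterpart, was at 0.25. PMAIP1, the BH3-only protein NOXA, rose from 16.7 to 67.7 CPM (2.01 ± 0.09), and BCL2A1 (1.89, from 0.764 CPM), an anti-apoptotic member, was the other of 21 tested BCL2 family and death receptor genes that rose. BBC3 (0.66), TNFRSF10B (0.74) and BCL2L11 (-0.25) did not pass both thresholds. The members of the network farthest below 0 were CEBPD (-0.31) and BCL2L11.

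**Figure D3:**
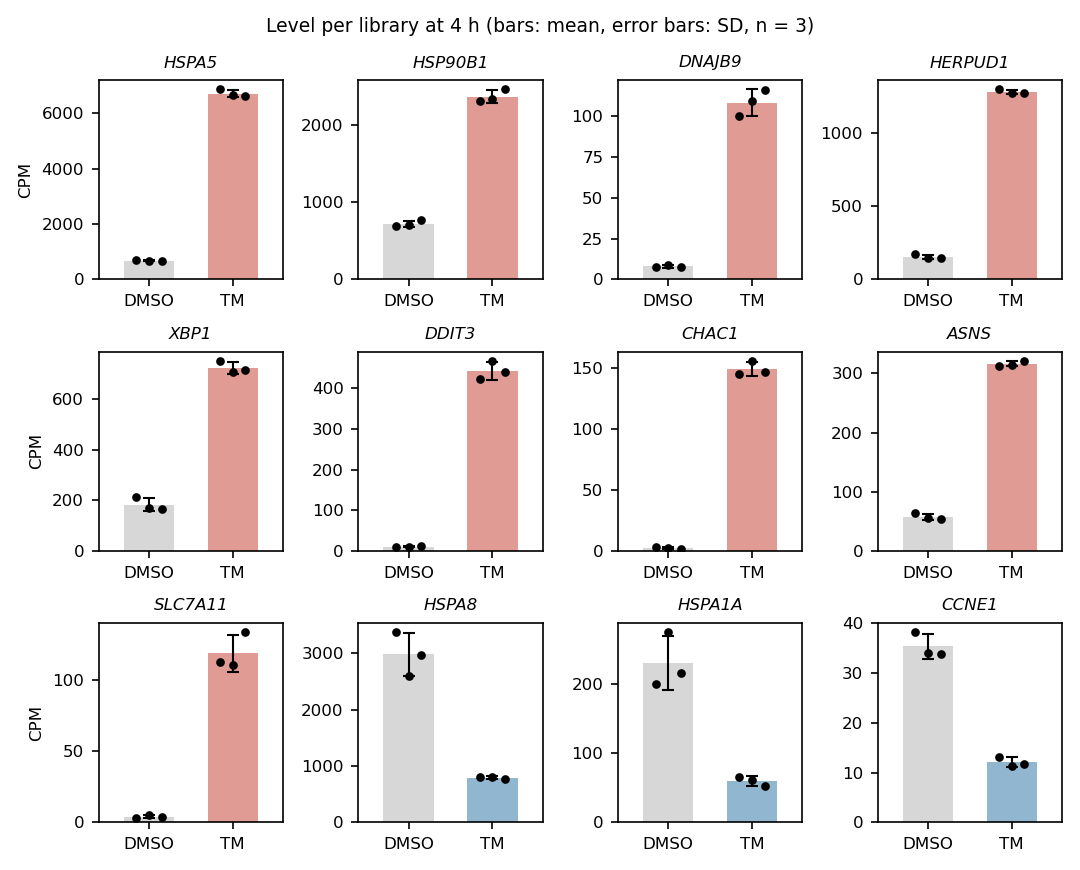
Bars show the mean level in CPM of 12 genes in DMSO and tunicamycin (TM) libraries at 4 h, points the 3 libraries and error bars the SD. In each panel the points of the groups do not overlap, and HSPA8, HSPA1A and CCNE1 are the genes that fell.

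Genes of amino acid supply rose in 3 related lists. Of 22 tested enzymes of amino acid synthesis and one-carbon metabolism 10 rose and 0 fell, with a median of 0.91 (11 rose without DMSO replicate 1). CTH, which makes cysteine, went from 4.78, 4.96 and 4.71 CPM to 41.7, 43.3 and 46.6 CPM (3.19 ± 0.10, adjusted p = 2.2e-09). ASNS, asparagine synthetase, rose from a mean of 57.8 to 316 CPM (2.45 ± 0.08). The serine branch moved together, with PSPH at 2.23, PSAT1 at 2.15 and PHGDH at 1.83 on the log2 scale. GOT1 (2.35), an aspartate aminotransferase, rose from 0.829 to 4.22 CPM. PYCR1 (0.94, and 1.06 with a call without DMSO replicate 1) and SHMT2 (0.89) passed the adjusted p alone, and PYCR3, at -0.47, was the member farthest below 0.

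Of 17 tested amino acid transporters 8 rose and 1 fell. SLC7A11, the cystine importer, was at 2.84, 4.96 and 3.88 CPM in DMSO and at 112, 110 and 133 CPM after tunicamycin (4.92 ± 0.15, adjusted p = 1.8e-09). It overlaps SLC7A11-AS1 on the opposite strand over 14081 bases, and that gene was also called higher. SLC3A2, the partner chain of SLC7A11, rose from 179 to 848 CPM (2.24 ± 0.07), and SLC6A9 (2.99), SLC38A2 (1.70), SLC7A5 (1.56) and SLC7A1 (1.52) rose with it. SLC25A22, a mitochondrial glutamate carrier, went from 46.7, 50.1 and 48.4 CPM to 24.8, 24.1 and 22.8 CPM (-1.02 ± 0.08), a call that was lost without DMSO replicate 2 and without tunicamycin replicate 3.

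The aminoacyl-tRNA synthetases, which load amino acids onto tRNA, differed by compartment in their counts. Of 21 cytosolic enzymes 6 rose and 0 fell with a median of 0.46, and of 17 mitochondrial enzymes 0 were called, with a median of -0.10. The difference between the lists was not tested. WARS1 rose by 1.74, CARS1 by 1.58, GARS1 by 1.5, AARS1 by 1.45, MARS1 by 1.01 and TARS1 by 1.00 on the log2 scale, and RARS1 was at -0.33. TARS1 and MARS1 were at the threshold, and the call of TARS1 was lost in 4 of 6 fits that left out 1 library and that of MARS1 in 2. Both calls were also lost without TMM scaling and with every gene of at least 1 count tested, each of which left 4 of the 21 called. TARS1 lost its call with DESeq2 as well. SARS2 (0.42) and MARS2 (-0.78) marked the range of the mitochondrial list.

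The letters TTGCATCA, a core of the C/EBP-ATF composite element, were searched on both strands in the same windows, since members of these lists hold them. They were found for 72 tested genes (0.713% of those with a window), against 295 of all 27326 genes of the table (1.08%). Counted by window, 304 of 35116 (0.866%) held them. Of the 72 genes 18 rose and 0 fell, 51 lay above 0 and the median was 0.28, so most genes with these letters were not called. Among genes called higher 18 of 353 (5.10%) held them. Of the cytosolic synthetases 6 of 16 with a window held the letters, 4 of them called (AARS1, CARS1, MARS1 and TARS1) and 2 not (IARS1 at 0.51 and NARS1 at 0.62). Other lists held them less often, with 3 of 14 synthesis enzymes and 2 of 16 transporters that had a window. In the ATF4 and CHOP network 4 of 27 held them, and 3 of the 22 called higher, so most of its called members lacked them. The windows of CHAC1 (chr15:40953221-40953520, plus strand), with the match from 209 to 202 bases before the start, and of AARS1 (chr16:70289457-70289756, minus strand), from 187 to 180, show it in capitals.
CHAC1: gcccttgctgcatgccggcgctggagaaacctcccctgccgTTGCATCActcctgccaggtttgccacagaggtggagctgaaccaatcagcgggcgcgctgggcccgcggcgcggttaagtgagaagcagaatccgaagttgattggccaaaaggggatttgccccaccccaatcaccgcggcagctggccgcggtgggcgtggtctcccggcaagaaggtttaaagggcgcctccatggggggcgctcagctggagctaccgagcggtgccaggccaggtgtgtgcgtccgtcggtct
AARS1: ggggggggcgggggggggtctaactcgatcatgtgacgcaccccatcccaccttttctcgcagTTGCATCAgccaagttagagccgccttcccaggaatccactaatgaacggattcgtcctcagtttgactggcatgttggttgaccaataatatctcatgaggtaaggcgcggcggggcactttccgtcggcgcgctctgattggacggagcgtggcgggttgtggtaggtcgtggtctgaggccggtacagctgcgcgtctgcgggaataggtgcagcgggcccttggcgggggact

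**Figure D4:**
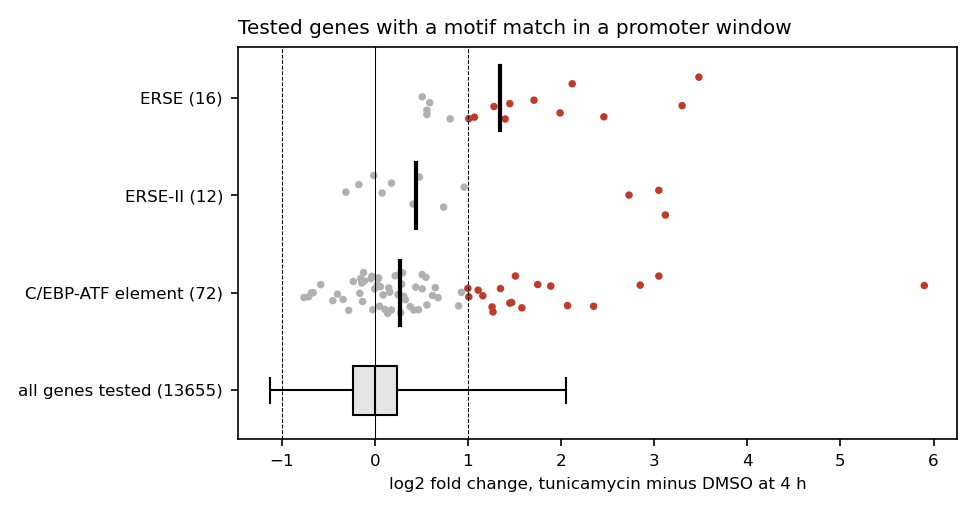
Points are tested genes with a match to ERSE (16 genes), ERSE-II (12) or the C/EBP-ATF element (72) in a promoter window, placed by log2 fold change after 4 h of tunicamycin and coloured red where called higher. Black bars are medians, the grey box is the interquartile range of all 13655 genes tested and its whiskers reach the 1st and 99th percentile. All 16 ERSE genes lie to the right of 0, and the C/EBP-ATF genes spread on both sides of it.

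A list of 18 tested heat shock genes, mostly cytosolic, had calls downward where the ER chaperones had calls upward. In the heat shock list 0 rose and 4 fell, 3 of them cytosolic and 2 of those near-identical copies, 12 passed the adjusted p alone downward, and the median was -0.41, against 0.67 for the ER chaperones. HSPA8, the constitutive cytosolic HSP70 and the highest called gene in the DMSO libraries, was at 3364, 2601 and 2972 CPM in DMSO and at 810, 800 and 761 CPM after tunicamycin (-1.91 ± 0.10, adjusted p = 1.3e-07). HSPA1A, an inducible HSP70, went from 201, 275 and 217 CPM to 65.8, 61.3 and 52.7 CPM (-1.94 ± 0.12, adjusted p = 4.8e-07), and HSPA1B (-1.49) is a near-identical copy whose reads may be split with it. HSPE1, the mitochondrial chaperonin HSP10, fell from 205 to 84.1 CPM (-1.29 ± 0.07). DNAJA1 (-0.88), HSPH1 (-0.69), DNAJB1 (-0.58) and HSP90AA1 (-0.47) lay below 0 and passed the adjusted p alone, and HSF1, the factor that drives the list, was at 0.35. The 4 calls held without DMSO replicate 1.

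Counts of cell cycle genes at the adjusted p alone stand against 17.9% of all genes tested upward and 16.1% downward. Of 36 DNA replication genes 1 rose and 2 fell, against 3.69 and 1.27% of all genes tested, while with the adjusted p alone 3 passed upward and 14 downward, and the median was -0.14. CCNE1, cyclin E1, which drives entry into S phase, went from 38.1, 34.0 and 33.8 CPM to 13.2, 11.4 and 11.8 CPM (-1.54 ± 0.10, adjusted p = 7.3e-07), and CCNE2 from 27.6 to 11.8 CPM (-1.23 ± 0.14). CDC6, which loads the replicative helicase, rose from 104 to 219 CPM (1.08 ± 0.08). Of 26 mitosis genes 0 were called and 14 passed the adjusted p alone, all downward, with a median of -0.29 and CCNF (-0.83) and BUB1B (-0.70) farthest from 0.

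The largest falls among genes at 5 CPM or more in DMSO were smaller than the largest rises. DUSP2, a nuclear phosphatase of MAP kinases, went from 6.91, 6.94 and 5.88 CPM to 0.932, 1.09 and 1.07 CPM (-2.66 ± 0.21, adjusted p = 2.6e-06). ENSG00000275993 (-2.17), which the annotation marks as an artifact, LRFN1 (-2.08) and HPDL (-2.0, a dioxygenase-like protein) followed, and LRFN4, of the same family as LRFN1, was at -1.57. RNASE2, a secreted granule ribonuclease, went from 181, 138 and 143 CPM to 43.2, 40.2 and 42.3 CPM (-1.88 ± 0.10), and RNASE1, of the same family, from 183 to 59.7 CPM (-1.62 ± 0.09). DDX3X, an RNA helicase of translation initiation, was the most abundant of these after HSPA8, at 390 CPM in DMSO and 139 CPM after tunicamycin (-1.48 ± 0.08). ZBTB42 (-1.77), RAB3A (-1.75), CD180 (-1.68), MEX3A (-1.60), LFNG (-1.57), CBX6 (-1.51) and MIR142HG (-1.48) also fell on the log2 scale. Of 12 tested messengers listed as targets of IRE1-dependent decay 0 were called, against 1.27% of all genes tested called lower. With the adjusted p alone 1 passed upward and 5 downward, against 17.9 and 16.1% of all genes tested. The median was -0.27 with 1 of 12 above 0, and SCARA3 (-0.96) and CD59 (-0.84) were the lowest. SCARA3, at under 2 CPM in the mean of either group, was called lower without DMSO replicate 2 (-1.08, adjusted p = 0.023 by edgeR) and without tunicamycin replicate 3 (-1.05, adjusted p = 0.041).

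Immediate early genes, which respond within minutes to many stimuli, were called in 13 of 27 cases, 12 higher and 1 lower, the latter being DUSP2. JUN, of the AP-1 complex, went from 5.49, 10.8 and 5.38 CPM to 51.0, 40.4 and 45.7 CPM (2.66 ± 0.21, adjusted p = 3.6e-06). FOSB (2.23), EGR1 (2.13), the antiproliferative BTG1 (2.03), IER3 (1.34) and DUSP5 (1.28) rose as well, while FOS was at 0.49 and its groups did not overlap. IER3, at 0.576 CPM in DMSO and 1.44 CPM after tunicamycin, lost its call in 4 of 6 fits that left out 1 library (adjusted p = 0.065 to 0.079, edgeR). JUN, EGR1 and FOSB were highest in DMSO replicate 2 among the DMSO libraries. Of 14 genes of SMAD feedback 3 rose, SMAD1 (1.54, from 0.505 CPM), SKIL (1.27) and TGIF1 (1.24), and ID1, a target of BMP signalling, was at -0.68.

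Noncoding host genes of small nucleolar RNAs rose in 5 of 17 cases and fell in 0, with a median of 0.45 (6 rose without DMSO replicate 1, with a median of 0.67). SNHG32 went from 128 to 344 CPM (1.43 ± 0.07) and SNHG1 from 98.7, 99.9 and 106 CPM to 244, 268 and 267 CPM (1.36 ± 0.07). EPB41L4A-AS1 (1.18), ZFAS1 (1.15) and GAS5 (1.01) followed, whereas SNHG4 was at -0.87. GAS5 lost its call without DMSO replicate 2, tunicamycin replicate 2 or tunicamycin replicate 3. It also lost it without TMM scaling (0.99) and with every gene of at least 1 count tested (1.00 when rounded). Transcripts of these host genes are known substrates of nonsense-mediated decay, as is GADD45A (2.03). GADD45A was the 1 of 17 genes in the list of decay factors and targets that was called. Of 77 cytosolic ribosomal protein genes 0 were called and the median was 0.00 (0.12 without DMSO replicate 1). RPS26, the lowest, was at -0.64 and of 35 ribosome biogenesis genes 0 were called, 12 passed the adjusted p alone downward and the median was -0.13.

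The study asks how ER stress alters splicing, and the levels of splicing factors and of genes whose splicing it follows were looked up. Of 20 tested SR protein and SR kinase genes 0 were called, against 4.96% of all genes tested, and the median was 0.00. With the adjusted p alone 1 passed upward and 4 downward, against 17.9 and 16.1% of all genes tested. SRSF1 was at 505, 496 and 522 CPM in DMSO and at 320, 327 and 351 CPM after tunicamycin, a log2 fold change of -0.61 ± 0.07 (adjusted p = 5.2e-05) that did not reach the fold threshold. SRSF2 was at -0.56, and CLK1, which phosphorylates SR proteins, at 0.43 (adjusted p = 0.059), from 30.6, 44.8 and 53.7 CPM to 55.3, 54.7 and 64.8 CPM. Of the 5 genes listed here for their isoforms 0 were called and 3 passed the adjusted p alone. AP3S2 was highest at 0.86 (adjusted p = 1.8e-04), from 28.2, 21.8 and 20.6 CPM to 44.1, 40.9 and 42.7 CPM, and ARIH2 (0.28), RBM39 (0.05), PRR3 (0.04) and EIF4A2 (-0.25) were nearer to 0. The study also follows events in NUP62 (-0.35, adjusted p = 0.0014), NUDT2 (0.54, adjusted p = 0.011) and ZFAS1, of which ZFAS1 was called higher, as given above. These are levels per gene, in which a switch between isoforms is not seen. UPF1, the helicase of nonsense-mediated decay, was at -0.12 (adjusted p = 0.24).

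The counts of other lists stand against the 3.69% of all genes tested that were called higher and the 1.27% called lower. At the adjusted p alone those shares were 17.9% upward and 16.1% downward. In autophagy and ER-phagy 3 of 34 rose, WIPI1 (1.95), and the ER-phagy receptors RETREG1 (1.78) and CCPG1 (1.61), and 17 passed the adjusted p alone upward and 4 downward. In sterol synthesis and uptake 2 of 26 rose, STARD4 (2.23) and HSD17B7 (1.36), and 13 passed the adjusted p alone upward and 0 downward. Of 29 glycolysis and hypoxia-inducible genes 2 rose, the angiogenic factor VEGFA from 32.5 to 146 CPM (2.17 ± 0.08) and SLC2A3 (1.11), and with the adjusted p alone 2 passed upward and 9 downward. Among NF-κB factors and targets 3 of 20 rose and 1 fell, namely the chemokines CXCL3 (1.76) and CXCL8 (1.17, from 58.5 to 132 CPM) and IER3 upward, the last with the unstable call given above, and the inhibitor NFKBIE (-1.13) downward. With the adjusted p alone 9 passed upward and 3 downward, and without DMSO replicate 1, 4 of the 20 were called higher and 1 lower. XAF1 (1.18) was the 1 of 26 interferon-stimulated genes that rose, while 13 passed the adjusted p alone upward and 2 downward, with a median of 0.30. Of 25 p53 targets SESN2, GADD45A and PMAIP1, which the lists above share, rose and PLK3 (-1.07) fell, the latter not called without tunicamycin replicate 3 (-0.88), whereas CDKN1A was at 0.49. With the adjusted p alone 6 passed upward and 8 downward, and without DMSO replicate 1, 2 of the 25 were called lower. TUBE1, epsilon tubulin, rose from 10.4 to 58.3 CPM (2.49 ± 0.11) while TUBA4A fell by 1.08 (-0.99 and not called without DMSO replicate 1) and 13 other tubulins were not called, with 2 of the list past the adjusted p alone upward, 9 downward and a median of -0.43. ATP2A2 (1.02), the ER calcium pump, was the 1 of 19 calcium genes called (6 passed the adjusted p alone upward and 4 downward), and that call was lost without DMSO replicate 1, without tunicamycin replicate 1 and without TMM scaling.

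Counts for markers of the line stand against 3.69% of all genes tested called higher and 1.27% called lower. Of 23 tested myeloid markers 2 rose, CD14 from 0.484 to 2.56 CPM (2.39 ± 0.28) and CSF2RA from 2.39 to 7.75 CPM (1.70 ± 0.19), and 3 rose without DMSO replicate 1. With the adjusted p alone 5 passed upward and 9 downward, against 17.9 and 16.1% of all genes tested. The 9 included the granule protease gene PRTN3 (-0.72), and 10 of the 23 markers lay above 0 with a median of -0.06. The summed level of the 25 markers was 4702 to 5335 CPM (without TMM scaling) in DMSO and 3936 to 4031 CPM after tunicamycin, with no overlap, a sum in which CTSG is the largest term, and the part of any shift in cell make-up in the results above was not tested. Of 11 tested genes listed for NPM1-mutant leukaemia, mostly HOX genes and MEIS1 with PBX3 and FLT3, 0 were called. They ranged from -0.41 for HOXA7 to 0.29 for MEIS1. All 13 mitochondrially encoded messengers lay below 0, with a median of -0.48. Of these 0 were called, and with the adjusted p alone 7 passed downward and 0 upward. Without DMSO replicate 1, the library with the lowest mitochondrial share in its group, the median was -0.66 and 1 was called lower. Of 404 zinc finger genes of the ZNF series 11 rose and 1 fell (12 and 2 without DMSO replicate 1), against 3.69 and 1.27% of all genes tested. With the adjusted p alone 100 passed upward and 36 downward, against 17.9 and 16.1%, and the median was 0.12. The highest were ZNF165 (2.06, from 0.308 CPM) and ZNF674 (1.62).

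The called genes differed from the tested genes in their build. Those called lower had a median of 3 exons and a GC content of 54.7% in the main transcript, against 8 exons and 49.0% for all genes tested, and 17.5% of them had a single exon against 5.68%. Those called higher had 6 exons, a GC content of 48.3% and a median length of 2882 bases against 3032. Long noncoding RNA genes numbered 78 of the 499 annotated genes called higher (15.6%) and 40 of 171 called lower (23.4%), against 9.92% of all genes tested. Called genes were also less abundant, with a median log2 CPM of 3.22 for those higher and 2.01 for those lower against 4.79 for all. ENSG00000269926, which has no symbol in the annotation used, rose from 2.86 to 106 CPM (5.22 ± 0.13), and L3MBTL2-AS1 (4.17) overlaps L3MBTL2 over 20909 bases on the opposite strand. In all, 211 of the called genes overlap another tested gene on the opposite strand, where reads of the pair may not be told apart. The share among all genes tested is not given here, so this count is no comparison.

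DMSO for 4 h against untreated cells at 0 h gave no called gene with all libraries kept and low genes filtered out. The solvent and 4 h of further culture go together in this comparison and cannot be told apart. With every gene of at least 1 count tested, 40 were called, 21 higher and 19 lower. In the model of all 21 libraries DMSO for 4 h against untreated cells gave 0 of 13655 genes (0%), with 1156 at an unadjusted p under 0.05. limma voom gave 0 genes and 1179 at that p, and DESeq2 gave 0 called, 19 at the adjusted p alone and 1113 at the unadjusted p. Without DMSO replicate 1, 1 gene was called, SSPOP (1.28, adjusted p = 0.042), a pseudogene named after its value was seen, while 26 genes passed the adjusted p alone and 2080 had an unadjusted p under 0.05. Pearson correlations of log2 CPM between libraries across genes were 0.9907 to 0.9953 for untreated with DMSO and 0.9704 to 0.9750 for tunicamycin with DMSO. The DMSO libraries are shared with the main comparison.

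The 4 h effect was then set against the effect at 24 h in the same line with an interaction term, the 24 h difference minus the 4 h difference. The term passed both thresholds for 828 genes (6.06%), 500 with the 24 h effect above that at 4 h and 328 below. The DMSO and tunicamycin libraries of 4 h enter both this term and the main comparison, so values are given side by side. DDIT4 was 5.45 higher on the log2 scale at 4 h and 0.72 at 24 h, when DMSO cells themselves had 280 CPM against 13.5 CPM at 4 h. STC2 was 6.63 higher at 4 h and 2.60 at 24 h, with means of 1.15 and 9.33 CPM in DMSO and 116 and 56.2 CPM after tunicamycin at these times. On the same scale ATF3 was higher by 3.67 at 4 h and 0.61 at 24 h, and JUN was at 2.66 and -0.37. SMAD1, at under 2 CPM, was 1.54 higher at 4 h and -1.92 at 24 h. At 24 h its mean was 0.786 CPM in DMSO and 0.196 CPM after tunicamycin, the latter near the counting limit. These genes were chosen for the most negative interaction, so the larger value at 4 h describes the choice.

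Of the genes chosen for the most positive interaction, 2 were ER chaperones. HSP90B1 was at 2399 CPM after 4 h of tunicamycin and 5251 CPM after 24 h (interaction 1.52, adjusted p = 2.0e-11), and CALR at 2709 and 4989 CPM (1.34, adjusted p = 1.3e-09). The cyclins and DUSP2, which fell at 4 h, were nearer to DMSO at 24 h. The log2 fold change of CCNE1 was -1.54 at 4 h and -0.26 at 24 h, that of CCNE2 -1.23 and 0.36, and that of DUSP2 -2.66 and -1.09. Their interaction terms were 1.28, 1.59 and 1.57.

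**Figure D5:**
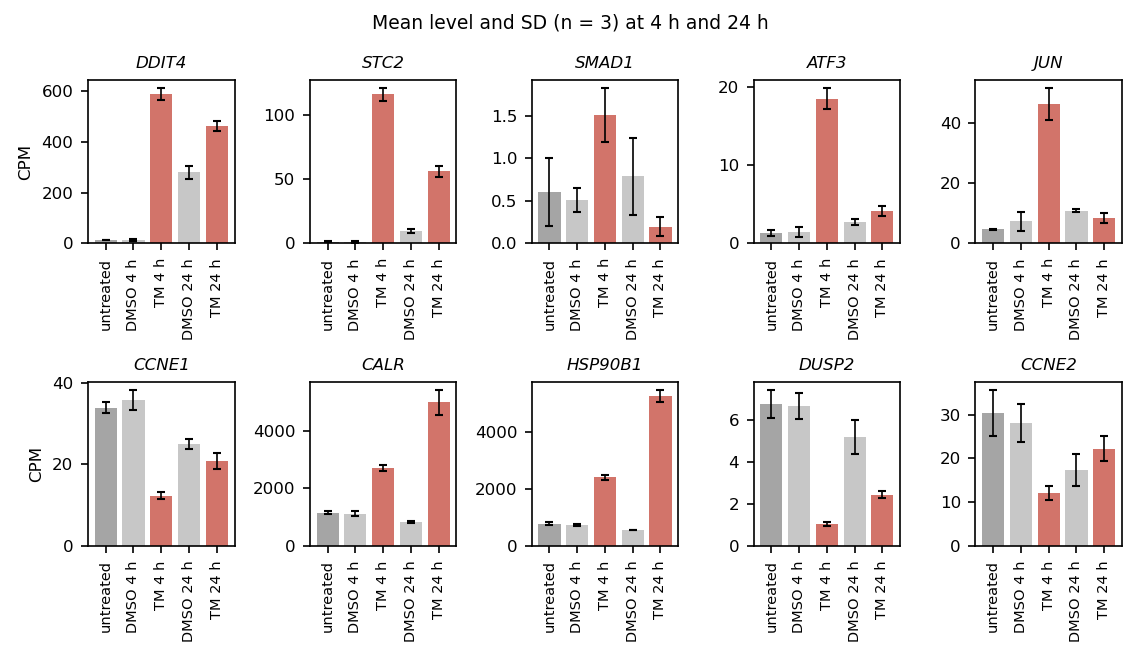
Bars are mean levels in CPM on the scale of the 21-library model and error bars the SD of 3 libraries, for untreated cells and for DMSO and tunicamycin (TM) at 4 h and 24 h. The 5 genes of the upper row are highest after 4 h of tunicamycin, and in the lower row CALR and HSP90B1 are highest after 24 h of tunicamycin while CCNE1, CCNE2 and DUSP2 are lowest after 4 h.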

How the data were processed

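Poly(A) RNA of the libraries was sequenced as paired-end reads. The reads were trimmed with seqtk, aligned with STAR and counted with RSEM on Ensembl release 101 of GRCh38. The authors deposited RSEM expected counts per gene, which were rounded to whole numbers here, and no per-sample column was left unused beyond the samples described (0 unused). Totals of the 6 libraries ran from 14108151 to 17701152 counts. RSEM shares reads between near-identical genes, and whether strand was used in counting is not given in the sources used here.

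Genes that reached 1 CPM in 3 or more of the 6 libraries entered the test, made with edgeR 4.0.16 (R 4.3.3), TMM scaling and the quasi-likelihood method. The thresholds, a log2 fold change beyond 1 or -1 and a p no higher than 0.05 after Benjamini-Hochberg adjustment, follow the methods of the study, which used limma voom. DMSO against untreated and the difference between 24 h and 4 h were fitted on all 21 libraries with 7 group means. CPM in the text are scaled by TMM unless stated, standard errors are the log2 fold change over the root of the F statistic, and deviations are SDs of 3 libraries. Symbols and overlaps came from GENCODE release 44, which named 13615 of the 13655 genes tested. On simulated data with 200 changed genes the test of 4 h tunicamycin recovered 100% at a log2 change of 1.5 and of 3, with 6 false calls among 13655 genes. The changed genes were drawn from those with a mean of at least 5 CPM, and no simulated library stood apart from its group. The simulation therefore says nothing of changed genes at lower levels, of changes near the threshold of 1, or of an outlying library.

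The members and the 38 gene lists were chosen with earlier results of these data known. The genes named were those the study names, DPAGT1, up to 6 called members of each list farthest from 0 in each direction (or up to 2 uncalled where fewer than 2 were called), the 20 largest rises and falls among called genes whose groups do not overlap and whose higher mean is at least 5 CPM, the 5 highest called genes of each group, and list members with the most negative or positive interaction. Other members named were chosen after their values were seen. Alternatives were limma 3.58.1 voom, DESeq2 1.42.0, other scalings and filters, all 21 libraries, the replicate number as a block, counts without the 10 most abundant genes, no fold threshold, and each library left out in turn. Figures were drawn with matplotlib 3.10.9.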

Additional observations from a re-analysis of the deposited data

Results flagged for a closer look

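The effect of tunicamycin differed between 24 h and 4 h by the interaction test for 828 genes, out of the 13655 tested with edgeR. Among list members called at 4 h, the interaction (24 h minus 4 h, log2) was -4.73 for DDIT4, -4.04 for STC2, -3.46 for SMAD1, -3.06 for ATF3 and -3.03 for JUN. It was 1.28 for CCNE1, 1.34 for CALR, 1.52 for HSP90B1, 1.57 for DUSP2 and 1.59 for CCNE2. The adjusted p of these 10 genes ran from 1.1e-14 for DDIT4 to 4.7e-04 for SMAD1. The mean of SMAD1 after 24 h of tunicamycin, 0.196 CPM, was near the counting limit. In DMSO cells DDIT4 itself was at 13.5 CPM at 4 h and 280 CPM at 24 h, and the part of this shift in the interaction was not tested.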

How the results depend on the processing

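The 677 genes called at 4 h became 635 to 721 when 1 library was left out (473 to 517 higher, 156 to 204 lower), 675 with limma voom, 641 with DESeq2 and 657 without TMM scaling. Without the fold threshold 4641 genes passed, 2442 higher and 2199 lower. With every gene of at least 1 count tested, the genes called lower numbered 274. Replicate numbers were shared by the groups, but deviations of same-numbered libraries correlated at 0.11, -0.07 and 0.19, so the number was not taken to pair them, and the replicate block gave 677 calls. DMSO against untreated gave 40 genes (21 higher, 19 lower) without the filter, and 0 to 1 when 1 library was left out (higher 0 to 1). The interaction gave 707 to 1013 genes with 1 library left out, 400 to 607 above 0 and 291 to 429 below. List members called, 140 in all, ran from 135 to 147 when 1 library was left out and numbered 134 without TMM scaling. Log2 fold changes near 0 changed sign when 1 library was left out, RBM39 from -0.03 (without DMSO replicate 1) to 0.12 and MPO from -0.16 to 0.07 (without DMSO replicate 1), with 0.05 without tunicamycin replicate 3. The cause of these shifts was not tested. Genes below about 1 CPM rest on few counts, and 3 libraries a group limit what differences could be seen.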
